A study of Mus musculus with 2 samples.

Results

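The genes described here are 10 genes of the ATF4 branch of the integrated stress response, namely Atf4, Atf5, Ddit3, Trib3, Chac1, Asns, Psat1, Phgdh, Shmt2 and Sesn2. They were chosen by gene name out of 44291 gene entries, with earlier results of these data known. They took up 11 entries, because Ddit3 is listed under 2 identifiers. The cells were primary fibro-adipogenic progenitors (FAPs), mouse muscle stromal cells that form the fat of injured muscle. The study asked how platelet-rich plasma (PRP) acts on their adipogenesis, and 1 culture with PRP and 1 control culture with vehicle each gave 1 RNA-seq library. Both cultures were wild type (WT) and are labelled as undergoing adipogenic differentiation, for which the medium held insulin (10 μg/ml), dexamethasone (0.25 μM), IBMX (0.5 mM) and serum (20% FBS), so neither library shows cells without inducers. The sample labels name the agent as PRP, whereas the study's text describes exosomes prepared from human PRP. The age of the mice, the number of mice behind each culture and the hour of harvest are not given in the labels.

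The integrated stress response links several kinds of stress to protein synthesis. Dedicated kinases phosphorylate the initiation factor eIF2, which slows translation in general but favours the mRNA of ATF4, a bZIP transcription factor whose start codon lies behind upstream open reading frames. ATF4 then switches on genes for amino acid synthesis and uptake, redox balance and feedback control, and with prolonged stress its partner CHOP, encoded by Ddit3, is linked to cell death. Because ATF4 is controlled mainly at translation, the mRNA level of Atf4 is not a measure of its protein, and none of the values below is a protein value.

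Levels are given as FPKM, that is read numbers scaled to exon length and to the reads assigned in each library, so they can be compared between genes. The PRP library held 40120843 assigned reads and the control library 34139741. Genes of the mitochondrial genome made up 2.06% of all FPKM with PRP and 3.70% in the control. After rescaling without these genes and the 50 most abundant ones, the median difference of the 10 genes was 0.34, against 0.36 as deposited. A gene passed the filter, and is called expressed here, when its mean FPKM over both libraries was at least 1, which left 13401 entries, and all 10 genes passed, the lowest with a mean of 2.84 FPKM. The difference of a gene is log2(PRP FPKM + 1) minus log2(control FPKM + 1), which understates the difference of genes with low levels. The ratio is PRP FPKM over control FPKM, with a 95% interval that covers counting error alone. Neither group has a replicate, so each difference is one between 2 libraries, and no spread between cultures is known.

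The labelled cell type was checked against marker genes. Of 10 FAP and stromal markers, 9 passed the filter, and the summed level of all 10 was 918 FPKM with PRP and 1130 FPKM in the control. Vim alone gave 593 and 610 FPKM of these sums, so they say little about the other markers. Pdgfra, a defining FAP marker, stood at 19.8 FPKM with PRP and 28.0 FPKM in the control, whereas Lum was under 0.1 FPKM in both. All 9 markers past the filter were lower with PRP (median difference -0.37), most of all Dpt (18.8 and 50.2 FPKM). Of all expressed genes, 49.1% were lower. In a bulk sample, fewer cells of a type and less RNA per cell cannot be told apart. Of 8 adipocyte markers, 6 passed the filter, 4 higher and 2 lower, where 50.9% of all expressed genes were higher. The sums were 138 and 143 FPKM, of which Lpl gave 67.4 and 83.3 FPKM. The interval of the ratio lay above 1 for 2, Pparg (ratio 1.33) and Fabp4 (ratio 1.21). It lay below 1 for 1, Lpl (ratio 0.810), and included 1 for 3. Among all expressed genes with an interval, it lay above 1 for 26.1% and below 1 for 26.1%. Markers of other cells were low: with 8 genes each, the sums with PRP and in the control were 2.94 and 2.58 FPKM for platelets, 11.2 and 11.1 FPKM for macrophages, and 9.75 and 5.51 FPKM for endothelium, where 1, 2 and 2 genes passed the filter. Of 8 myogenic markers, 7 were found and 3 passed, with sums of 21.8 and 18.4 FPKM, and Pax7 and Myog were listed at 0 in both libraries, as were the platelet genes Ppbp and Gp9. The part of the markers in the differences described next was not tested.

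All 10 genes were higher with PRP than in the control library, against 50.9% of all expressed genes. Their median difference was 0.36 on the log2 scale, from 0.05 for Shmt2 to 0.88 for Ddit3, and the median of all expressed genes was 0.01. Of the 10 genes, 0 were at least 2-fold higher (2.00% of all expressed genes were), and 3, namely Ddit3, Trib3 and Chac1, were at least 1.5-fold higher (6.15% of all expressed genes). With 5 in place of 1 added to the FPKM, which shrinks the differences of low genes, 1 of the 10, Ddit3, was at least 1.5-fold higher, against 2.37% of all expressed genes. The interval of the ratio lay above 1 for 7 of the 10 genes, whereas it did so for 26.1% of the 12369 expressed genes that have an interval. The 3 genes whose interval included 1 were Psat1, Shmt2 and Sesn2. Since the 10 genes were chosen with earlier results of these data known, these shares are described and are not tests.

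**Figure D1:**
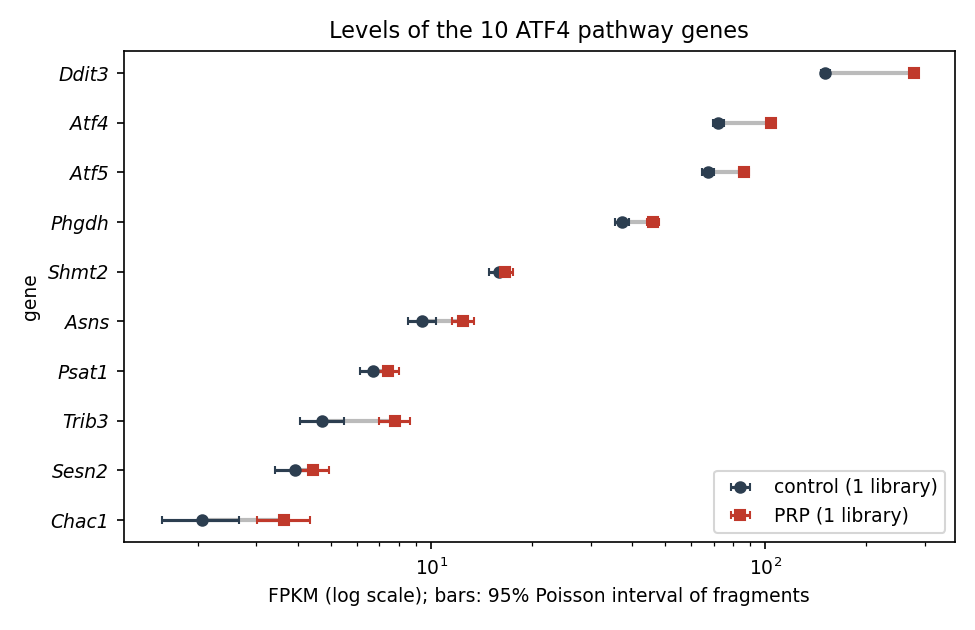
FPKM (horizontal log axis) of the 10 genes in the control library (dark circles) and the PRP library (red squares), ordered by the control level, where bars are exact 95% Poisson intervals of the fragment counts. Every red square lies to the right of its dark circle, and the intervals of both libraries overlap for Psat1, Sesn2 and Shmt2.

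**Figure D2:**
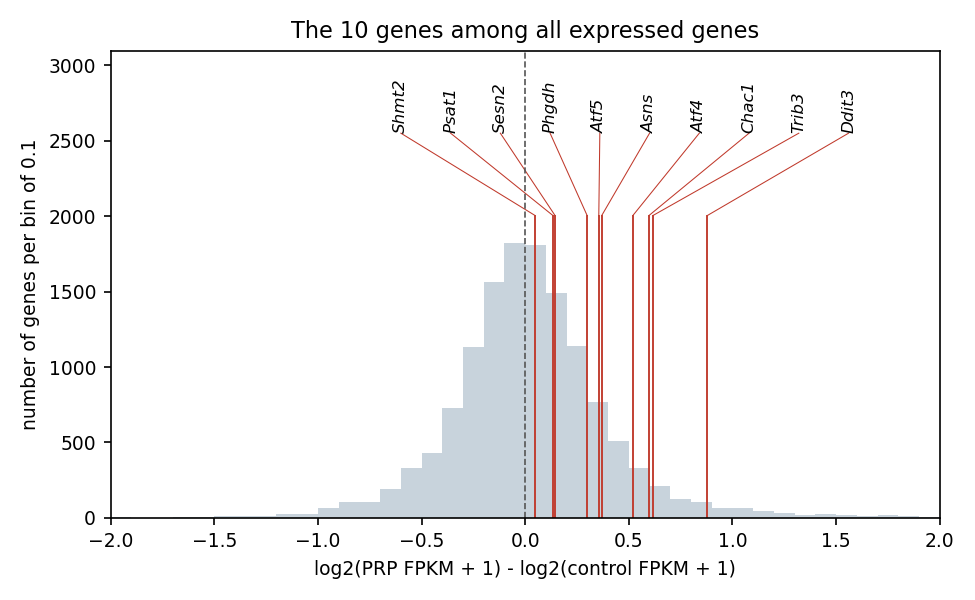
Number of expressed genes (vertical axis, bins of 0.1) by log2 difference between the libraries, with red lines at the 10 named genes. All lines lie to the right of 0, with Ddit3 farthest out at 0.88, and 26 genes beyond 2 in either direction are not drawn.

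Among the transcription factors of the branch, Ddit3 differed most. Ddit3 encodes CHOP, a bZIP factor induced by ATF4. Ddit3 (ENSMUSG00000025408, chromosome 10, 127290774 to 127296288, plus strand) had 279 FPKM with PRP and 151 FPKM in the control. With 19153 and 8841 reads, this gave a ratio of 1.84 (interval 1.78 to 1.91). This was the largest difference among the 10 genes, and only 2.60% of expressed genes had a larger one. Ddit3 was also an abundant transcript, ranking 171st among all entries in the PRP library and 334th in the control library. Other genes overlap 10.9% of the exon length of Ddit3. They are the methionyl-tRNA synthetase gene (68 bases, or 3.97%) and Gm4189 (13 bases), both antisense, and a second Ddit3 entry on the same strand (105 bases, or 6.13%). Whether counting used strand is not stated.

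The second Ddit3 entry (ENSMUSG00000116429, chromosome 10, 127290829 to 127293753) is a short open reading frame of 105 bases that starts with ATG, holds 34 codons before its stop and lies wholly within the leader of the Ddit3 mRNA, before the CHOP coding part. Such an upstream frame is known to restrain CHOP translation in unstressed cells. The entry had 571 FPKM with PRP and 322 FPKM in the control, a ratio of 1.77 (interval 1.60 to 1.96), from 2406 and 1156 reads. Those reads equal 12.6% and 13.1% of the reads of the main entry, so the share was alike in both libraries. As each of its bases is also in an exon of the main entry on the same strand, the reads of both entries are not independent, and the short entry is left out of the counts of genes above.

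**Figure D3:**
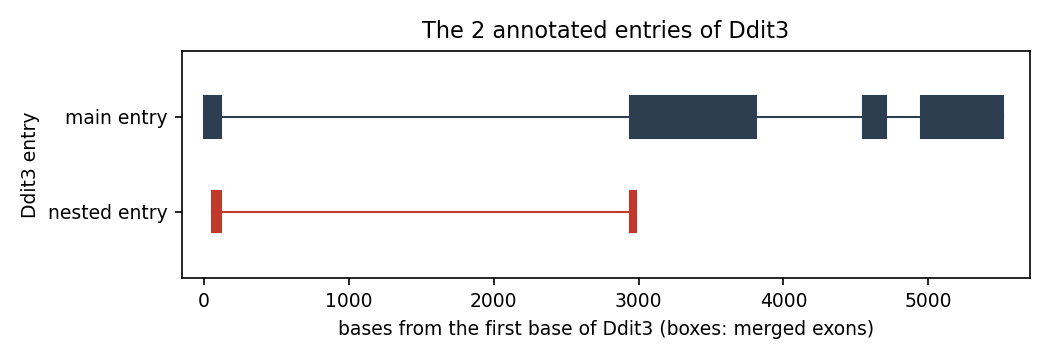
Merged exons (boxes) of the main Ddit3 entry (top) and of the nested entry (bottom) along the gene, in bases from the first base of Ddit3. The nested entry takes the last 63 bases of the first exon and the first 42 bases of the second.

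Atf4 (ENSMUSG00000042406, chromosome 15, 80255184 to 80257541, plus strand) had 104 FPKM with PRP and 72.4 FPKM in the control. Its ratio was 1.44 (interval 1.37 to 1.51), from 9856 and 5828 reads, and 7.63% of expressed genes had a larger difference. Atf5, a close relative of Atf4 that is controlled by upstream frames as well (ENSMUSG00000038539, chromosome 7, 44812256 to 44816658, minus strand), stood at 86.3 FPKM with PRP and 67.3 FPKM in the control. Its ratio was 1.28 (interval 1.22 to 1.35), from 6902 and 4577 reads, with 14.3% of expressed genes above it. Both factors were thus higher with PRP by more than counting error, and by less than Ddit3, whose interval lies above both of theirs. Atf5 shares 82 bases, or 4.11% of its exon length, with Nup62 and Il4i1 on the opposite strand.

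Of the feedback, redox and nutrient-sensing targets, Trib3 and Chac1 were higher and Sesn2 was not detectably so. Trib3, a pseudokinase that binds ATF4 and dampens its activity (ENSMUSG00000032715, chromosome 2, 152337422 to 152344032, minus strand), stood at 7.78 FPKM with PRP and 4.73 FPKM in the control. With 663 and 343 reads, its ratio came to 1.64 (interval 1.36 to 1.99). Chac1, an enzyme that degrades glutathione (ENSMUSG00000027313, chromosome 2, 119351229 to 119354381, plus strand), had 3.62 FPKM with PRP and 2.06 FPKM in the control. Its ratio came to 1.76 (interval 1.28 to 2.46), with 238 and 115 reads, the lowest read numbers of the 10 genes and hence the widest interval. Sesn2, which restrains mTORC1 when leucine is scarce and is also a p53 target (ENSMUSG00000028893, chromosome 4, 132492032 to 132510501, minus strand), stood at 4.42 FPKM with PRP and 3.90 FPKM in the control. Its ratio of 1.13 (interval 0.952 to 1.35, from 616 and 463 reads) included 1, so no difference was detectable at this depth.

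**Figure D4:**
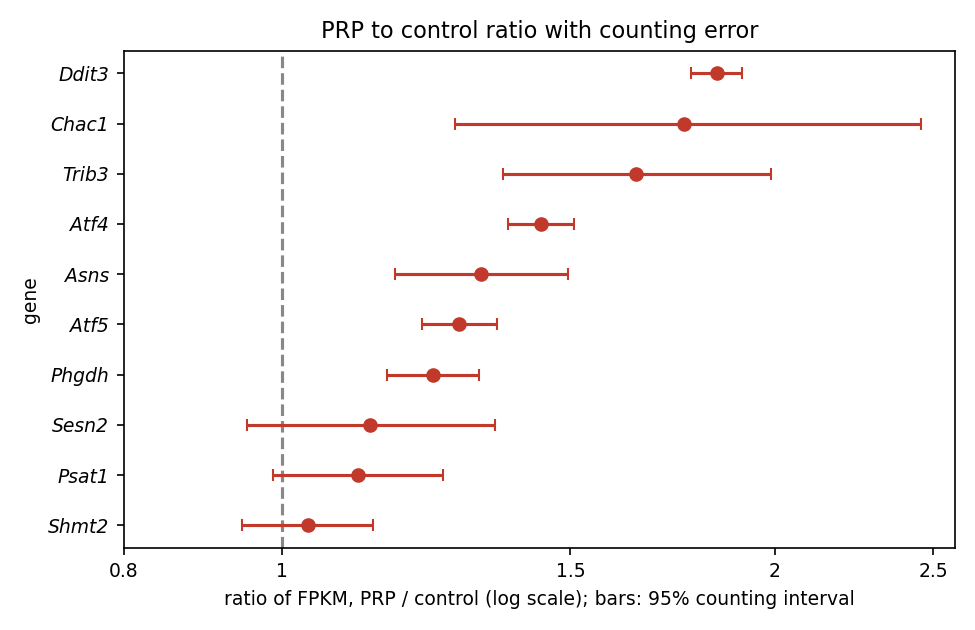
Ratio of FPKM, PRP over control (horizontal log axis), for the 10 genes, where bars are 95% intervals of counting error alone and the dashed line is a ratio of 1. Ddit3 has the highest ratio at 1.84, and the bars of Sesn2, Psat1 and Shmt2 cross the line.

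The promoters of the 10 genes were searched for TGATGNAA, the core letters of the composite C/EBP-ATF element to which ATF4 binds with a C/EBP partner, on both strands. The windows, from RefSeq on GRCm38.p6, run from 250 bases before to 50 bases after each RefSeq start, which differs from the start of the GENCODE span for the genes with a match. All 10 genes had a window, and 3 of them held a match, namely Chac1, Trib3 and Asns, against 4.51% of 27025 genes in the table and 2.66% of the 8655 expressed genes in it. A match to these letters is no proof of binding, and elements outside the window were not searched. As the 10 genes were chosen as genes of the ATF4 branch, the higher share says nothing about these libraries. The 30 bases around each match are shown on the strand of the gene, with the match in capitals to let the 3 matches be compared. For Chac1 (chr2:119351038-119351067, plus strand) the match starts 193 bases before the RefSeq start, or 180 before the GENCODE one, and reads TGATGCAA on the opposite strand. For Trib3 (chr2:152344028-152344057, minus strand) it starts at base 15 after the RefSeq start and reads TGATGTAA on the opposite strand, but as the GENCODE gene begins 28 bases further downstream, it lies 14 bases before that start. For Asns (chr6:7693214-7693243, minus strand) it starts 23 bases before the RefSeq start and reads TGATGAAA on the strand of the gene, but as the GENCODE gene begins 45 bases further upstream, it starts at base 23 of that gene.
Chac1: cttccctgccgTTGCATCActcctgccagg
Trib3: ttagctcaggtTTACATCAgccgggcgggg
Asns: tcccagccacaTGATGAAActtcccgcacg

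Across the 230 expressed genes with a match, 57.8% were higher with PRP, with a median difference of 0.04. Across the 8425 expressed genes without one, 50.8% were higher, with a median of 0.01.

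Among the amino acid enzymes, Asns and Phgdh were higher beyond counting error. Asns, which makes asparagine and is a classical ATF4 target (ENSMUSG00000029752, chromosome 6, 7675169 to 7693254, minus strand), stood at 12.4 FPKM with PRP and 9.41 FPKM in the control. Its ratio was 1.32 (interval 1.17 to 1.49), from 1366 and 879 reads. Phgdh, Psat1 and Shmt2 belong to the route from glycolysis to serine and glycine. Phgdh, the first enzyme of serine synthesis (ENSMUSG00000053398, chromosome 3, 98313170 to 98339990, minus strand), stood at 46.0 FPKM with PRP and 37.2 FPKM in the control, a ratio of 1.24 (interval 1.16 to 1.32), from 4593 and 3161 reads. Psat1, the second enzyme of that route (ENSMUSG00000024640, chromosome 19, 15904678 to 15947337, minus strand), stood at 7.44 FPKM with PRP and 6.69 FPKM in the control. Its ratio of 1.11 had an interval from 0.987 to 1.25, with 1269 and 971 reads. Shmt2, the mitochondrial enzyme that turns serine into glycine (ENSMUSG00000025403, chromosome 10, 127517123 to 127522444, minus strand), stood at 16.6 FPKM with PRP and 16.0 FPKM in the control, the smallest difference of the 10 genes. Its ratio was 1.04 (interval 0.945 to 1.14), with 2069 and 1699 reads. Over 32 bases, or 1.03% of its exon length, Shmt2 overlaps Ndufa4l2 on the opposite strand. For Psat1 and Shmt2 the interval thus included 1, and no difference was detectable at this depth.

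The levels of the 10 genes spanned a wide range in both libraries. In the control library the order ran from Ddit3 over Atf4, Atf5, Phgdh, Shmt2, Asns, Psat1, Trib3 and Sesn2 down to Chac1, and the intervals of the neighbours Atf4 and Atf5 and of Trib3 and Sesn2 overlapped. In the PRP library Trib3 stood before Psat1, a pair whose intervals overlapped there (7.78 and 7.44 FPKM), as did those of Sesn2 and Chac1. All other neighbours were apart by more than their counting error. The transcription factors were therefore the most abundant mRNAs of the group, and the feedback and redox genes Trib3, Sesn2 and Chac1 were among the least abundant.

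Relatives of these genes differed in direction. Of 6 paralogs, 5 passed the filter, of which 1 was higher and 4 were lower with PRP, with a median difference of -0.42. Of all expressed genes, 49.1% were lower. The interval of the ratio lay above 1 for 1 of the 5, below 1 for 3 and included 1 for 1. Among all expressed genes with an interval, it lay above 1 for 26.1% and below 1 for 26.1%. Shmt1, the cytosolic form of Shmt2, had 2.20 FPKM with PRP and 1.02 FPKM in the control, a ratio of 2.16 (interval 1.62 to 2.91). Trib2 had 3.76 and 6.19 FPKM (ratio 0.608, interval 0.526 to 0.702). Among the sestrins, Sesn1 had 1.72 and 2.64 FPKM (ratio 0.649, interval 0.516 to 0.816) and Sesn3 had 0.715 and 1.77 FPKM (ratio 0.403, interval 0.342 to 0.475). Chac2, the constitutive relative of Chac1, had 12.9 and 13.4 FPKM (ratio 0.966, interval 0.825 to 1.13). Trib1 stayed under the filter, with 0.527 and 0.338 FPKM (ratio 1.56, interval 1.02 to 2.41).

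The machinery upstream of ATF4 comprises the eIF2 kinases, the subunits of eIF2 and of its exchange factor eIF2B, and the phosphatase subunits that end the response. The list used here held 18 genes, since it also took in Gcn1, Impact, Eif2a and Eif2d, which belong to none of these classes. All 18 passed the filter, 12 higher and 6 lower with PRP, where 50.9% of all expressed genes were higher. The median difference was 0.07. The interval of the ratio lay above 1 for 9 genes and below 1 for 3, where each was the case for 26.1% of all expressed genes with an interval. Gcn1, Impact, Eif2a and Eif2d were each higher, by at most 0.18. The kinase genes differed in direction. Eif2ak2, the double-stranded RNA sensor PKR and an interferon-induced gene, had 61.3 FPKM with PRP and 48.8 FPKM in the control (ratio 1.25, interval 1.21 to 1.30). Eif2ak3, the endoplasmic reticulum kinase PERK, had 5.62 and 7.85 FPKM (ratio 0.716, interval 0.646 to 0.794). Eif2ak4, the amino acid sensor GCN2, had 7.35 and 8.89 FPKM (ratio 0.827, interval 0.760 to 0.899). Eif2ak1, the heme-regulated kinase HRI, had 12.8 and 12.9 FPKM (ratio 0.992, interval 0.919 to 1.07). Eif2b3, an eIF2B subunit, had 4.45 and 3.26 FPKM (ratio 1.37, interval 1.20 to 1.56).

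The 2 phosphatase subunits stood apart from each other. Ppp1r15a, or GADD34, the stress-induced subunit that brings the phosphatase to eIF2, had 181 FPKM with PRP and 52.3 FPKM in the control. Its ratio was 3.45 (interval 3.31 to 3.61), from 21301 and 5249 reads, which is above the ratio of any of the 10 genes. Ppp1r15b, its constitutive counterpart, had 7.84 and 6.76 FPKM (ratio 1.16, interval 1.05 to 1.29). The activity of kinases and phosphatases is set at the protein level and was not measured.

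Of 10 bZIP factors and partners of ATF4, 9 passed the filter, 8 of them higher and 1 lower, with a median difference of 0.15. Of all expressed genes, 50.9% were higher. The interval of the ratio lay above 1 for 5 of the 9, below 1 for 1 and included 1 for 3. Among all expressed genes with an interval, it lay above 1 for 26.1% and below 1 for 26.1%. Atf3, which is induced by ATF4 and by many other signals, had 12.0 FPKM with PRP and 5.14 FPKM in the control (ratio 2.33, interval 1.97 to 2.77). Nfe2l2, which encodes the antioxidant factor NRF2, had 57.0 and 32.5 FPKM (ratio 1.75, interval 1.66 to 1.85). Jdp2, a repressor of AP-1, had 54.3 and 40.8 FPKM (ratio 1.33, interval 1.25 to 1.42).

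A wider list of 42 other ATF4 targets was taken from general knowledge, but with earlier results of these data known. It held 38 expressed genes. Of these, 30 were higher and 8 lower with PRP, where 50.9% of all expressed genes were higher. The interval of the ratio lay above 1 for 23, below 1 for 7 and included 1 for 8. Among all expressed genes with an interval, it lay above 1 for 26.1% and below 1 for 26.1%. At least 1.5-fold higher were 7 and at least 1.5-fold lower 0 (6.15% and 4.57% of all expressed genes), and the median difference was 0.20. Of the 42 genes, 10 also stand in another list given here, and the 30 expressed genes that do not had a median of 0.19, with 23 higher and 7 lower. The largest differences were those of Slc7a11, Ppp1r15a and Gdf15. Slc7a11, the cystine transporter subunit that is shared by ATF4 and NRF2 as a target, had 7.98 FPKM with PRP and 0.766 FPKM in the control. Its ratio was 10.4 (interval 8.96 to 12.2), from 4460 and 364 reads. Gdf15, a stress-induced secreted factor, had 22.6 and 7.21 FPKM (ratio 3.13, interval 2.70 to 3.64).

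Enzymes of serine, glycine and one-carbon metabolism outside the 10 genes showed no common direction. Of 18 such genes, 14 passed the filter, 7 higher and 7 lower, with a median difference of -0.01. Psph, the last enzyme of serine synthesis, had 9.68 FPKM with PRP and 8.27 FPKM in the control (ratio 1.17, interval 1.05 to 1.30). Mthfd2, the mitochondrial folate enzyme often induced along with Shmt2, had 14.5 and 10.6 FPKM (ratio 1.36, interval 1.23 to 1.51). The formyl-tetrahydrofolate dehydrogenases were lower, Aldh1l1 at 5.97 and 11.9 FPKM (ratio 0.504, interval 0.452 to 0.561) and Aldh1l2, itself described as an ATF4 target, at 7.05 and 10.7 FPKM (ratio 0.657, interval 0.606 to 0.712). Outside the 10 genes, overlap with other genes takes more than 10% of the exon bases of Eif2ak1, Ppp1r15b, Psph, Aldh1l1 and Aldh1l2, at most 14.1% for Aldh1l2. Some of their reads may therefore belong to the overlapping genes. How counting treated such reads is not stated, but the nested Ddit3 entry, which overlaps in full, kept reads.

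The other arms of the unfolded protein response, run by XBP1 and ATF6, were mostly lower. Of 20 genes of these arms, 19 passed the filter, and 14 were lower and 5 higher with PRP, with a median difference of -0.19, where 49.1% of all expressed genes were lower. The interval of the ratio lay below 1 for 11 of the 19 genes and above 1 for 4, and each was the case for 26.1% of all expressed genes with an interval. Pdia6, a disulfide isomerase, had 103 FPKM with PRP and 157 FPKM in the control (ratio 0.655, interval 0.636 to 0.675). Sel1l, a part of the degradation machinery, had 21.7 and 30.5 FPKM (ratio 0.712, interval 0.682 to 0.744). Ern1, which encodes the sensor IRE1 that splices Xbp1 mRNA, was higher, at 5.38 and 3.24 FPKM (ratio 1.66, interval 1.48 to 1.86). Splicing of Xbp1 cannot be read from values per gene.

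**Figure D5:**
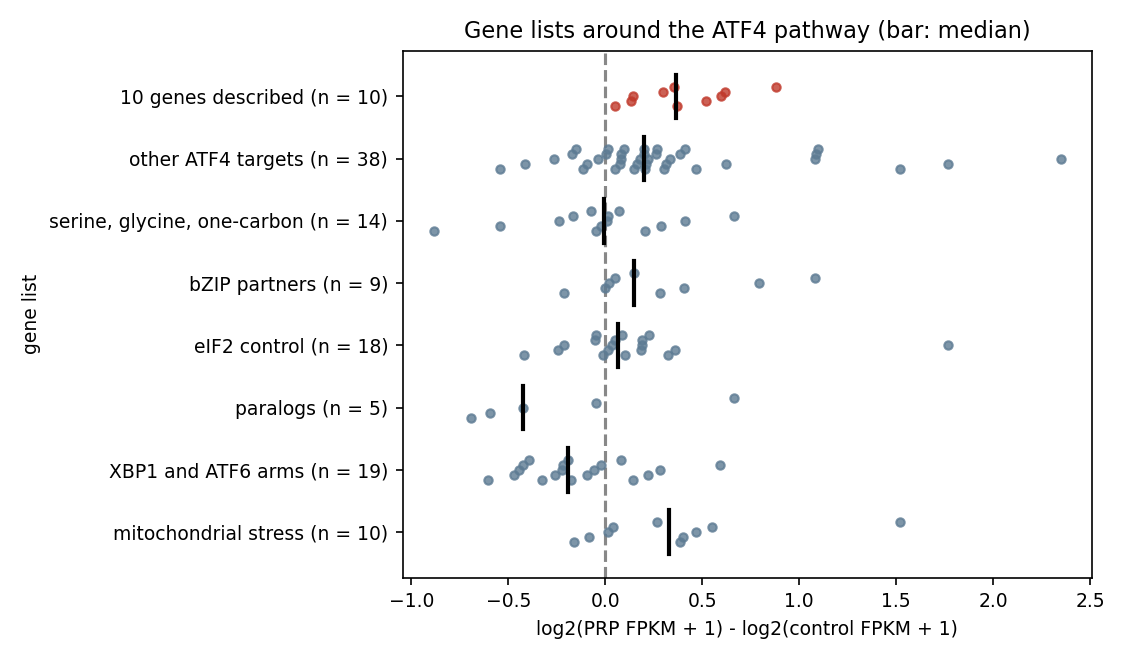
Log2 difference (horizontal axis) of each expressed gene in 8 gene lists, where points are genes, black bars are medians and the dashed line is no difference. The 10 genes (red) all lie above 0, with a median of 0.36, the other ATF4 targets have a median of 0.20, and the XBP1 and ATF6 genes have one of -0.19.

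Sequence features that bear on control of the 10 genes were compared with those of all expressed genes, with 1 transcript per gene, the one with the longest coding part. The leader, that is the part of the mRNA before the coding part, held at least 1 upstream ATG in 6 of the 10 genes, against 49.9% of 10145 expressed genes with a leader. At least 2 were present in Atf4 (3), Atf5 (2) and Ddit3 (2), against 27.9% of expressed genes, and Asns, Psat1 and Sesn2 had 1 each. Among the 10 genes, the 3 transcription factor genes had the most upstream start codons, but this share of 30% is near that of all expressed genes. The leader of Atf4, at 594 bases, was the longest of the 10, where the median of expressed genes was 173 bases.

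The study followed let-7f and miR-16 of the PRP exosomes, so the 10 genes were searched for seed matches of the mouse miRNAs of the same names. Their mature sequences from RefSeq (GRCm38.p6) are shown with the seed, bases 2 to 8, in capitals.
mmu-let-7f-5p: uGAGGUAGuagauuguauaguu
mmu-miR-16-5p: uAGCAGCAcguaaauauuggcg

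The match to the let-7f seed (CTACCTC) was in the 3'UTR of 0 of the 10 genes, against 8.85% of 10223 expressed genes with a 3'UTR. The match to the miR-16 seed (TGCTGCT) was in 2, Chac1 and Psat1, against 22.2%. With a median of 620.5 bases the 3'UTRs of the 10 genes were shorter than those of expressed genes, whose median was 958 bases. A seed match is a stretch of letters and was not tested for function.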

How the data were processed

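RNA of 1 PRP-treated and 1 control culture was sequenced from stranded mRNA libraries. Per the labels and the study's methods, the authors trimmed reads with fastp 0.23.4, aligned them to mm10 with STAR 2.5.3a, counted reads per gene with featureCounts and deposited FPKM values. The conversion to FPKM, the annotation release and the strand setting are not given in the sources used here. Gene positions, exon lengths and transcripts are from GENCODE M21 (GRCm38), which has an entry for 41492 of the 44291 genes.

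With these lengths, 93.8% of 28160 genes above 0 yielded whole numbers of reads (tolerance 0.001) on both sides, the 10 genes included. Even read numbers prevailed (79.3% and 80.3% of genes with up to 8 reads), so reads were divided by 2 before exact Clopper-Pearson intervals of the ratio and exact Poisson intervals of the levels were computed. All intervals cover counting error only and compare 2 libraries, and PCR duplicates are not accounted for. No test was run, since each group has 1 library. Differences used a pseudocount of 1 and a minimum mean FPKM of 1. Scripts were checked on simulated data.

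The genes and lists were chosen with earlier results of these data known. All 10 genes are named, as are the 3 genes with the largest difference in each pathway list, the eIF2 kinases, phosphatase subunits and paralogs, Psph and Mthfd2. Marker genes and Xbp1 were named apart from this rule, the markers after their values were seen. Alternatives were other pseudocounts, filters, scalings and fold thresholds. Python 3.11.15, NumPy 2.4.6, pandas 2.3.3, SciPy 1.17.1 and matplotlib 3.10.9 were used.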

Additional observations from a re-analysis of the deposited data

How the results depend on the processing

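All 10 genes stayed higher in the PRP library under pseudocounts of 0.1 and 5, without a filter, after rescaling to a common sum, after centring on the median gene and after rescaling without mitochondrial genes and the 50 most abundant genes, and the 8 that passed a filter of 5 FPKM did too. Their median difference ranged from 0.28 with a pseudocount of 5 to 0.38 with a pseudocount of 0.1, and was 0.30 without Ddit3, Chac1 and Trib3. The number of the 10 genes at least 2-fold higher stayed at 0 except with the 1.5-fold threshold, which gave 3. The number at least 1.5-fold higher was 1 with a pseudocount of 5, which weighs on the low levels of Trib3 and Chac1. With reads not divided by 2, the interval lay above 1 for 9 of the 10 genes, now also for Psat1 (from 1.02) and Sesn2 (from 1.002), against 31.9% of all expressed genes with an interval. The number of all expressed genes at least 2-fold apart, 379, was 739 with a pseudocount of 0.1, 113 with one of 5, 596 on a common sum, 638 on a sum that leaves out mitochondrial and top genes, 210 under the stricter filter (5 FPKM), 1436 at 1.5-fold and 26 at 4-fold. The alternatives on the nested Ddit3 entry, on leaving out 3 genes and on the 1.5-fold count were chosen after seeing the data. No paired analysis was possible because neither group holds more than 1 library. Depth limits Chac1 most, at 238 and 115 reads, and the missing replicates limit every value.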

Other observations

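Mitochondrial stress genes, which share Gdf15 with the list of other ATF4 targets, and p53 target genes, which include Sesn2, were compared as well. Of 11 mitochondrial stress genes, 10 passed the filter, 8 higher and 2 lower with PRP, with a median difference of 0.33. Of all expressed genes, 50.9% were higher. The interval of the ratio lay above 1 for 6 of the 10, below 1 for 1 and included 1 for 3. Among all expressed genes with an interval, it lay above 1 for 26.1% and below 1 for 26.1%. Hspd1, the mitochondrial chaperonin, had 275 FPKM with PRP and 187 FPKM in the control (ratio 1.47, interval 1.43 to 1.51). Clpp, a matrix protease, had 11.8 and 8.21 FPKM (ratio 1.43, interval 1.18 to 1.74). Gdf15 is in this list too and led it.

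Of 12 p53 target genes, all passed the filter, 8 higher and 4 lower, with a median difference of 0.10. Of all expressed genes, 50.9% were higher. The interval of the ratio lay above 1 for 5 of the 12, below 1 for 4 and included 1 for 3. Among all expressed genes with an interval, it lay above 1 for 26.1% and below 1 for 26.1%. Sesn2 and Sesn1 are among the 12 genes, and the genes named next have the largest differences. Mdm2, which ubiquitinates p53, had 135 and 72.7 FPKM (ratio 1.86, interval 1.81 to 1.92). Trp53inp1 had 10.1 and 5.94 FPKM (ratio 1.69, interval 1.54 to 1.86), and the cell cycle inhibitor gene Cdkn1a had 15.2 and 10.1 FPKM (interval of the ratio 1.35 to 1.65). For comparison, the sterol synthesis list had a median difference of -1.03 over 14 expressed genes and the interferon list one of 1.39 over 10, both farther from 0 than the 0.36 of the 10 stress response genes.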
